A study of Mus musculus with 14 samples.

Results

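Expression of 9 circadian clock genes was compared between the sexes and across postnatal ages in mouse liver: Clock, Npas2, Per1, Cry2, Ciart, Bhlhe40, Bhlhe41, Nfil3 and Hlf. They are clock genes other than the strongly age-dependent Dbp and Nr1d1, and they make up 9 of the 19751 genes that could be named on the array. Every probe whose RefSeq accession maps to one of these symbols was taken, which gave 10 probes, 1 for each gene and a second for Bhlhe41. The main pattern was an age difference seen most fully in female liver, where Npas2 and Nfil3 were lower and Ciart was higher at 8 wk than at 3 or 4 wk, and Cry2 was higher at 8 wk than at 3 wk, although the age ratios of the sexes were not called different for any of the genes. Per1 was about 2-fold higher in female than in male liver at all ages. The male 8 wk RNA pools differed from each other in Ciart, Npas2, Per1 and Bhlhe40 by more than nearly all other probes did.

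Livers came from untreated CD-1 mice of both sexes aged 3, 4 or 8 wk, and the 6 groups are named M3, M4, M8, F3, F4 and F8. Each group had 2 pools of total liver RNA, from 5 mice per pool at 3 wk and 6 mice per pool at 4 and 8 wk. Pairs of pools were hybridized to 14 Agilent mouse expression arrays in 7 comparisons, with the age comparisons F8/F3, F8/F4, M8/M3 and M8/M4 and the sex comparisons M3/F3, M4/F4 and M8/F8. There were 2 arrays per comparison with the dyes exchanged between them. Pooling leaves no information on single mice, and neither the hour of killing nor the litters are given in the sources used here. Ratios are log2 of male over female or of 8 wk over the younger age, so that a ratio above 0 is higher in male liver or at 8 wk.

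The clock of a liver cell is a feedback loop of transcription. CLOCK or its close relative NPAS2 pairs with ARNTL (BMAL1) on E-boxes, short DNA motifs, and activates the Period and Cryptochrome genes, the REV-ERB receptor genes Nr1d1 and Nr1d2, the PAR bZIP genes Dbp, Tef and Hlf, and Bhlhe40, Bhlhe41 and Ciart, several of whose products repress the activators in turn. REV-ERB and ROR receptors act on a second motif, the RORE, found in Arntl, Npas2 and Nfil3, so that genes of the E-box arm and of the RORE arm peak at different times of day in liver.

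A gene was called when limma gave an adjusted p below 0.05 for an expression ratio above 1.5 or below 0.667, and the probe was bright in one of the groups compared, meaning that the scanner software put its spot well above background on both arrays. The 8 genes other than Bhlhe41 passed the filter on dim probes, and 5 of them were called in at least 1 comparison, as were 23.8% of the 27390 probes tested. In all, 12 of 56 gene and comparison pairs were called, beside 8.33% of such pairs over all bright probes, and 4 more passed the adjusted p but not the fold threshold. The age comparisons of one sex share their 8 wk pools, which also entered M8/F8, and the comparisons are therefore not independent of each other.

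On each array 55.2% to 77.2% of spots (median 66.5%) in a channel were well above background, and no spot was saturated. The directions of the ratios were checked with the Y chromosome gene Ddx3y, whose log2 ratio of male over female was 5.80 to 7.24 on the 6 arrays of the sex comparisons, and with Xist, at -6.67 to -5.10. The 6 hepatocyte markers were bright on all arrays, with the lowest signal of Alb, the albumin gene, at 85532. The summed signal of the 6 macrophage markers was 21903 to 35865 in M3, 28365 to 38982 in M4, 18703 to 26953 in M8, 27308 to 51673 in F3, 33818 to 46687 in F4 and 30114 to 44464 in F8, and 3 of the 6 were called lower in M8/F8, 2 in each of M8/M3 and M8/M4, and 1 in each of M4/F4, F8/F3 and F8/F4. Medians of the markers of sinusoidal endothelium, bile duct, stellate cells and lymphocytes lay between -0.61 and 0.43 in the 7 comparisons. Of the 6 stellate markers 3 were called down in M8/M3 and 2 in each other age comparison, and of the 5 bile duct markers 2 were called down in M8/M3, M8/M4 and F8/F3 and 1 in F8/F4. Of the 5 erythroid markers, 3 were called down and 1 up in M8/M3 and in M8/M4, and 3 were called down in F8/F3 and in F8/F4. Their summed signal was 2854 to 5584 in M3, 3956 to 5711 in M4, 9023 to 12989 in M8, 2519 to 4366 in F3, 2483 to 3832 in F4 and 2266 to 3841 in F8. Most of that sum was Alas2, the one marker called up (1.37 in M8/M3), with a signal of 1892 to 12676, and the median ratio of the 5 was -1.93 in M8/M3. The part of these cells in the clock gene results was not tested, and in whole liver RNA fewer cells of a type and less RNA per cell cannot be told apart.

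The male 8 wk pools stood apart from each other, which bears on every comparison with M8. Arrays of one replicate number were taken to carry the same pool of a group, since the sum of ratios around a closed loop of 4 comparisons is then close to 0. For Ciart that sum was -0.61 on replicate 1 and 0.31 on replicate 2 in the 3 wk loop, and it was 2.54 and -2.83 when the M8/M3 and M3/F3 arrays of the other replicate were put in. In the 4 wk loop it was 0.09 and -0.07. With arrays of the other replicate put in, the 3 wk sums were also further from 0 for Npas2, Per1, Bhlhe40, Nfil3 and Clock. They were about alike for Hlf and no further from 0 for Cry2 (0.05 and -0.04, beside 0.06 and -0.06). The 4 wk sum of Npas2 was -0.52 on replicate 1. Pool levels were then estimated by least squares, each relative to the mean of the 6 pools of its replicate number. Over 27349 probes the median difference between the pools of a group was 0.06 to 0.10 on the log2 scale, and 95% of probes differed by less than 0.56 in M8. Between the M8 pools the second exceeded the first by 2.10 for Ciart, 0.72 for Per1 and 0.64 for Bhlhe40, and it was below the first by a difference of -0.84 for Npas2. These 4 of the 8 genes lay outside the range of 95% of probes in M8, compared with 2 of 8 in F3, 2 of 8 in F8 and 0 of 8 in each of the other groups. The levels are centred on the 6 pools of a replicate number, so the pool differences of a gene sum to 0 over the groups. A large difference in M8 is thus met by opposite ones elsewhere, as for Ciart with -0.53 in F3 and -0.82 in F8. The counts in F3 and F8 can in part come from the centring. Only 24 of the 27349 probes differed more between the M8 pools than Ciart did. Most M8 ratios of the 8 genes are therefore given with and without these pools, a setting added after seeing the data. Without one pool M8 is an arm of 1 sample that is assumed to vary like the other groups, and the difference between the M8 pools is then absent from the error, so that a call gained in this way is a call for 1 pool. The M8 ratios of genes other than these 8 are given with both pools only.

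**Figure D1:**
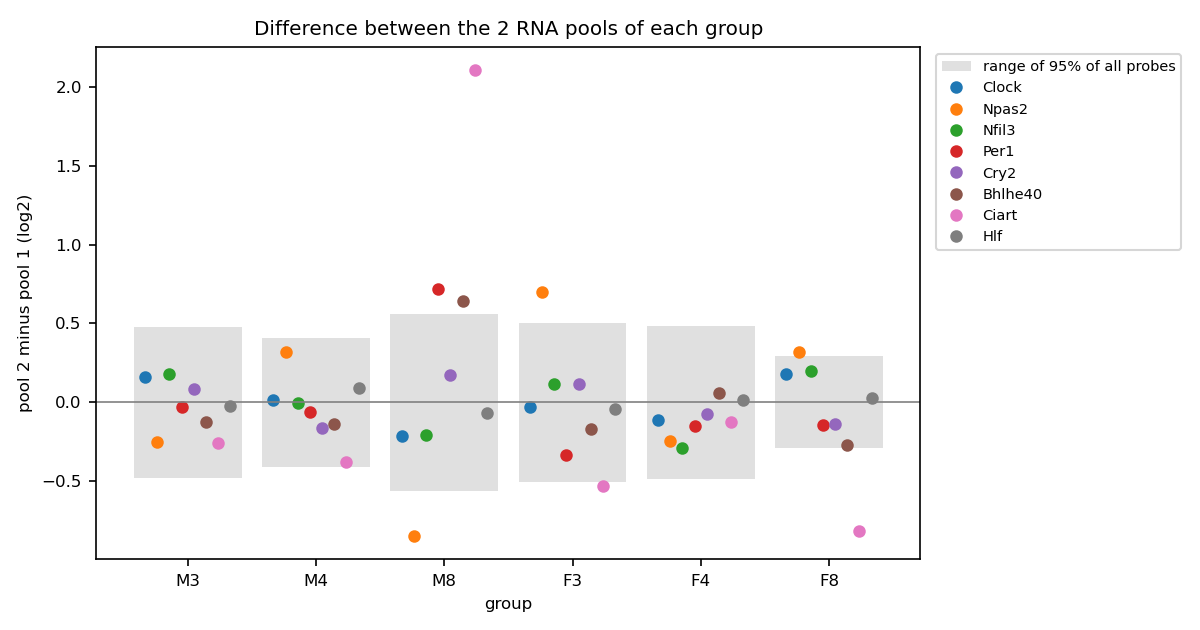
Level of each of 8 clock genes in the second RNA pool of a group minus that in the first, on the log2 scale, for the 6 groups. Grey bars span 95% of all 27349 probes; Ciart (2.10), Per1 (0.72), Bhlhe40 (0.64) and Npas2 (-0.84) lie outside the bar in M8.

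Npas2, the partner of ARNTL that can stand in for CLOCK, was lower at 8 wk than at 4 wk in both sexes and lower than at 3 wk in female liver. In F8/F4 the arrays gave -2.58 and -1.61, with a fitted log2 ratio of -2.09 (standard error 0.40, limma, adjusted p = 0.00841), or 4.26-fold lower at 8 wk. In F8/F3 they gave -1.39 and -1.30 (fitted -1.34, standard error 0.40, adjusted p = 0.0476). In M8/M4 they gave -1.36 and -1.95 (fitted -1.66, standard error 0.40, adjusted p = 0.0219). All arrays of these comparisons lay on the same side of 0. In M8/M3 the arrays agreed closely, at -0.90 and -0.99, but the ratio of -0.95 was not called (adjusted p = 0.137), nor was it at -1.28 and -0.61 without the M8 pool of replicate 1 and 2. The sex ratio in M8/F8 was 1.75 on replicate 1 and -0.01 on replicate 2, and the fitted 0.87 was not called (adjusted p = 0.169). The F8 spot of replicate 1 had a signal of 14.1 and was not well above background, and the 1.75, the ratio of 1.46 without the M8 pool of replicate 2 and, in part, the difference of -0.84 between the M8 pools rest on that spot. It was 0.28 without the M8 pool of replicate 1 and 1.46 without that of replicate 2. Without the M8 pool of replicate 1 the M8/M4 ratio was -2.24 (adjusted p = 0.0507) and without that of replicate 2 it was -1.07 (adjusted p = 0.217), so the call in male liver needed both pools. With arrays left out one at a time, the F8/F4 call was lost without its replicate 1 (-1.81, adjusted p = 0.0943) and the M8/M4 call without its replicate 2 (-1.03, adjusted p = 0.249), whereas the F8/F3 call held in only 6 of 14 cases, with an adjusted p of 0.281 without its replicate 2, and in 10 of 17 other settings. With normexp background correction and loess the ratio was -0.67 in F8/F3 (adjusted p = 0.0696), -1.38 in F8/F4 (adjusted p = 0.00330) and -1.04 in M8/M4 (adjusted p = 0.0122). Npas2 was a dim probe, with a processed signal of 14.1 to 164 over the 28 array channels, all but the F8 channel above being well above background.

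Clock, the gene of the constitutive partner, was called in no comparison. Its largest ratio was 0.39 in M8/F8 (arrays 0.60 and 0.18, standard error 0.14, adjusted p = 0.0912). In F8/F3 it was -0.34 (arrays -0.42 and -0.26, adjusted p = 0.131) and in F8/F4 -0.31 (arrays -0.48 and -0.14, adjusted p = 0.165). All 4 female arrays lay below 0, whereas the male age arrays had mixed signs, with 0.29 and -0.02 in M8/M3. With the M8 pool of replicate 1 or 2 left out, the M8/F8 ratio was 0.20 or 0.57, the M8/M3 ratio -0.04 or 0.31, and the M8/M4 ratio -0.15 or 0.16. The range of its 6 group levels, 0.38 on the log2 scale, was narrow beside that of Npas2, which spanned 2.34.

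**Figure D2:**
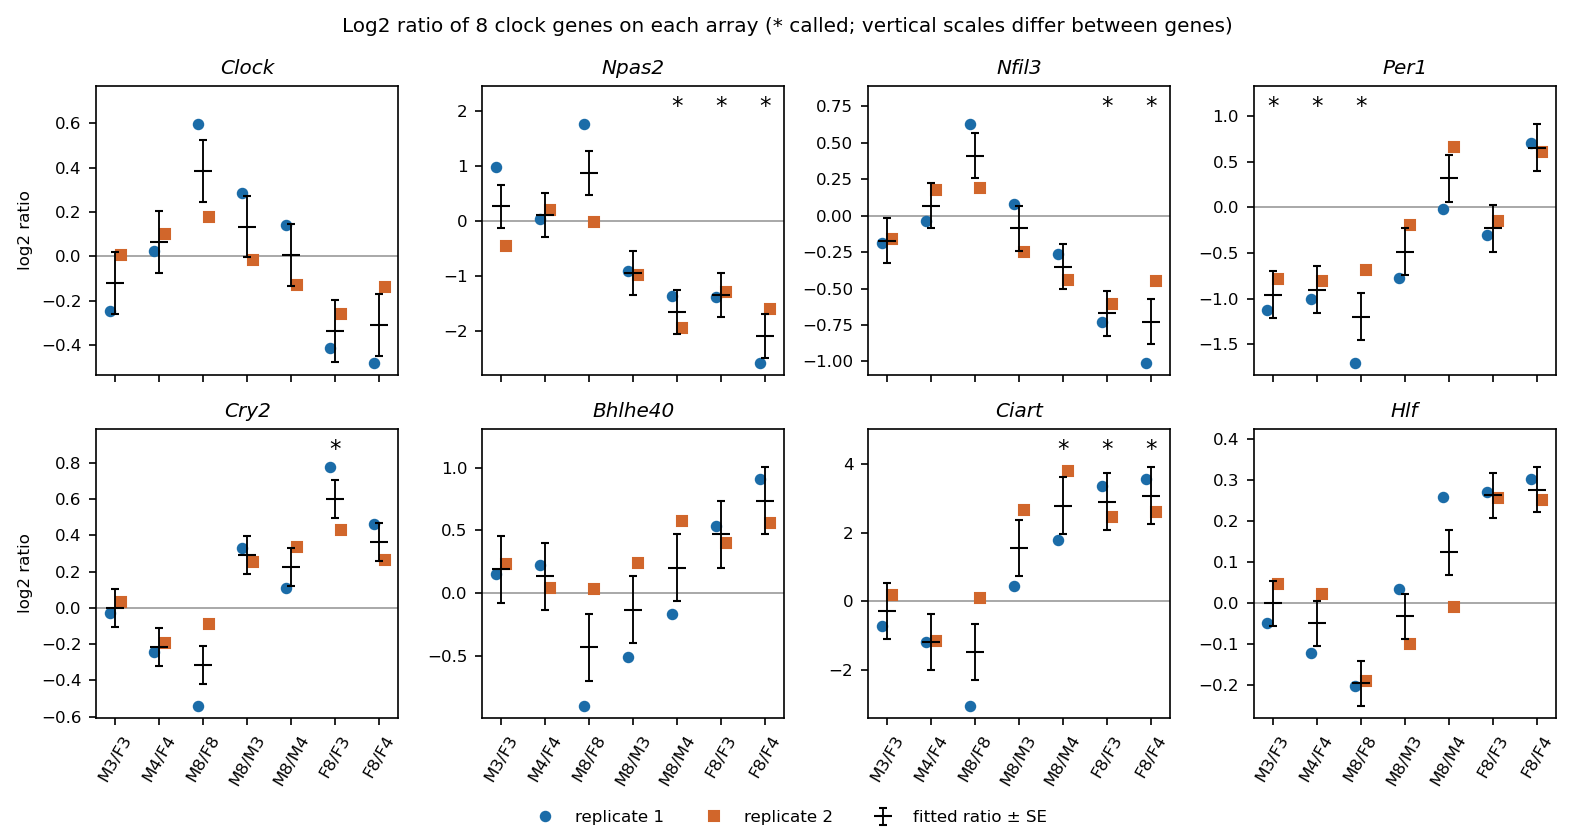
Log2 ratio of 8 clock genes on the arrays of replicate 1 (circles) and replicate 2 (squares) in each of the 7 comparisons. Black bars give the fitted ratio with its standard error (14 arrays, 2 per comparison) and stars mark called ratios; the 2 arrays of M8/F8 lie far apart for Ciart (-3.05 and 0.09) and Npas2 (1.75 and -0.01).

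Among the repressors, Ciart (also called CHRONO, a repressor that binds the CLOCK and ARNTL complex) had the largest ratios. The expression ratio in F8/F4 was 8.51, with arrays at 3.57 and 2.61 and a fitted log2 ratio of 3.09 (standard error 0.83, adjusted p = 0.0336). In F8/F3 the arrays gave 3.37 and 2.45 (fitted 2.91, adjusted p = 0.0417). In M8/M4 they gave 1.80 and 3.80 (fitted 2.80, adjusted p = 0.0479). These 6 arrays were all far above 0, but the 3 adjusted p-values were close to the threshold. With normexp and loess the ratios were 2.15 in F8/F4, 2.05 in F8/F3 and 1.44 in M8/M4, the last of them not called (adjusted p = 0.0892). In M8/M3 the arrays gave 0.44 and 2.68, and the fitted ratio of 1.56 was not called (adjusted p = 0.236).

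The signals behind these ratios differed by pool. In the M8 pool of replicate 1 Ciart had a processed signal of 50.5 in red on M8/F8, 40.4 in green on M8/M3 and 36.0 in green on M8/M4. In the M8 pool of replicate 2 the signals were 205 in green on M8/F8, 265 in red on M8/M3 and 264 in red on M8/M4. The first pool was the lower one with either dye and on slides of both scan days. In F8 the signal was 192 to 500 over 6 channels, and in the 3 and 4 wk groups it was 10.3 to 57.9. The first M8 pool thus overlapped the range of the younger groups and the second that of F8. Without the first pool the M8/M3 ratio was 3.03 (adjusted p = 0.0104) and the M8/M4 ratio 4.15 (adjusted p = 0.00572), and without the second they were 0.09 (adjusted p = 0.886) and 1.45 (adjusted p = 0.0491). The standard error fell from 0.83 to 0.28 in these fits, since the difference between the M8 pools no longer entered it. In M8/F8 the ratio was -1.48 (arrays -3.05 and 0.09, adjusted p = 0.260). It was -0.26 without the first pool and -2.70 (adjusted p = 0.0139, again from an arm of 1 pool) without the second. With each of the 14 arrays left out in turn, the calls held in 5 cases in M8/M4 (1.49 to 4.11), 6 in F8/F3 (2.52 to 3.3) and 7 in F8/F4 (2.67 to 3.51).

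Motifs of the clock were looked for in the promoters, since Ciart and Per1 are known E-box targets and Nfil3 a known RORE target. RefSeq promoters (GRCm38.p6, 250 bases before to 50 after a start) covered the 9 genes except Bhlhe40, with 11 promoters for 8 genes. The E-box CACGTG, which reads the same on both strands, occurred in the promoters of 3 genes, 3 times in Ciart and once each in Per1 and Bhlhe41, compared with 7.15% of all 32851 promoters in the table. In Ciart the motifs start 116, 58 and 44 bases before the start site, and in Per1 the motif starts 166 bases before it. The RORE core TAGGTCA, searched on both strands, occurred in Nfil3 alone of the 8 genes searched, on the minus strand 12 bases before the start, and in 2.61% of all promoters. The D-box spellings TTATGTAA and TTACGTAA occurred in none of the 11 promoters and in 1.06% of all. The CRE TGACGTCA occurred in Hlf and in 1.79% of all. None of these motifs overlapped another in the promoters searched, and a match says only that these letters are present. The promoters of Ciart (chr3:95882179-95882478, minus strand), Per1 (first start, chr11:69098699-69098998, plus strand) and Nfil3 (chr13:52980990-52981289, minus strand) are shown because these genes carried the age and sex differences and hold a motif, which is in capitals.
Ciart: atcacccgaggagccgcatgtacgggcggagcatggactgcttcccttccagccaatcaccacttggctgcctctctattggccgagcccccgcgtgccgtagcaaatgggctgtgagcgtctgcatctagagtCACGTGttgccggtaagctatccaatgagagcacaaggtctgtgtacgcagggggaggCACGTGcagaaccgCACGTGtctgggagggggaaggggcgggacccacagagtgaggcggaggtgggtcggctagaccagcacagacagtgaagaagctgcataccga
Per1: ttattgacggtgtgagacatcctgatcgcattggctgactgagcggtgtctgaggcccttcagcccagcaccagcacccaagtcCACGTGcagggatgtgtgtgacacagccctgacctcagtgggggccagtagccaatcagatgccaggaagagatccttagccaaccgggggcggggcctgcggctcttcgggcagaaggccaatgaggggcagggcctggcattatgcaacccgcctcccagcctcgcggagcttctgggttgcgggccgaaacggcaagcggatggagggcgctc
Nfil3: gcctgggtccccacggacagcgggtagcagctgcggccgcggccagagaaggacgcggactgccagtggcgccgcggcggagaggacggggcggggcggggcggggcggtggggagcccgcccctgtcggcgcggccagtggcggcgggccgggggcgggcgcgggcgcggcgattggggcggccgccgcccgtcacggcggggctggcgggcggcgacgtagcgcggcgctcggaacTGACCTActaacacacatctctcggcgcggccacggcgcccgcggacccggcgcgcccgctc

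Per1, a Period gene whose product represses CLOCK and ARNTL and which also responds quickly to glucocorticoids, was higher in female liver at each age. None of its age ratios was called in the fit used here, but several other settings called F8/F4. The arrays gave -1.13 and -0.78 in M3/F3 (fitted -0.96, standard error 0.26, adjusted p = 0.0346). They gave -1.0 and -0.80 in M4/F4 (fitted -0.90, adjusted p = 0.0426) and -1.71 and -0.69 in M8/F8 (fitted -1.20, adjusted p = 0.0145). All 6 arrays were higher in female liver, by 1.94-, 1.87- and 2.29-fold on average at 3, 4 and 8 wk. Per1 was the only gene of the 8 called in each sex comparison in the fit used here. Ciart had arrays of -1.19 and -1.17 in M4/F4 (fitted -1.18, adjusted p = 0.375, with the M4 spot well above background on 1 of 2 arrays), which were called in the fits without an M8 pool, where the standard error was 0.19 in place of 0.83. Of all bright probes, 0.659% were called in the comparison at 3 wk, 1.77% in that at 4 wk and 6.98% in that at 8 wk. Without the M8 pool of replicate 1 the M8/F8 ratio was -0.75 (adjusted p = 0.0474) and without that of replicate 2 it was -1.64 (adjusted p = 0.0101). The call in M8/F8 was lost without its replicate 1 alone (-0.63, adjusted p = 0.166), and those in M3/F3 and M4/F4 each held with 6 of the 14 arrays left out in turn and were lost with adjustment within the comparison (adjusted p = 0.264 and 0.143). Its largest age ratio was 0.66 in F8/F4 (arrays 0.71 and 0.61, adjusted p = 0.117), which was called with the replicate number as a block (adjusted p = 0.0392), with 6 group means (adjusted p = 0.0288) and with the error-weighted mean. In M8/M4 the arrays were at -0.02 and 0.66, and the ratio of 0.32 became 0.72 (adjusted p = 0.0518) without the M8 pool of replicate 1 and -0.08 without that of replicate 2. In M8/M3 the ratio was -0.49 (arrays -0.78 and -0.19, adjusted p = 0.236), and it was -0.13 without the M8 pool of replicate 1 and -0.84 (adjusted p = 0.0394, from an arm of 1 pool) without that of replicate 2.

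Cry2, a Cryptochrome gene whose product represses together with the Period proteins, was higher at 8 wk in female liver. In F8/F3 the arrays gave 0.78 and 0.43 (fitted 0.60, standard error 0.11, adjusted p = 0.00601), an expression ratio of 1.52. In F8/F4 they gave 0.46 and 0.27, and the fitted ratio of 0.36 passed the adjusted p (0.0442) but was only 1.29-fold. In male liver the ratios were 0.29 in M8/M3 (arrays 0.33 and 0.26, adjusted p = 0.0908) and 0.22 in M8/M4 (arrays 0.11 and 0.34, adjusted p = 0.182). All 8 age arrays were above 0, but only the F8/F3 ratio passed both thresholds. The call in F8/F3 was lost without its replicate 1 (0.48, adjusted p = 0.0814). The sex ratio in M8/F8 was -0.31 (arrays -0.54 and -0.09, adjusted p = 0.0726). Without the M8 pool of replicate 1 it was -0.17 and without that of replicate 2 it was -0.46. The M8/M4 ratio was 0.42 and 0.03 without the pool of replicate 1 and 2, and no M8 ratio of Cry2, Nfil3 or Hlf was called without either pool.

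Bhlhe40 and Bhlhe41 (DEC1 and DEC2) encode repressors that compete for E-boxes. Bhlhe40 was called in no comparison in the fit used here. Its F8/F4 arrays, at 0.91 and 0.56, and its F8/F3 arrays, at 0.54 and 0.40, were above 0, with fitted ratios of 0.74 (adjusted p = 0.0923) and 0.47 (adjusted p = 0.269). The F8/F4 ratio was called with shared pools in the covariance (adjusted p = 0.0442), with 6 group means (adjusted p = 0.0179) and with the error-weighted mean. In M8/F8 the arrays were at -0.90 and 0.03, and the ratio was -0.01 without the M8 pool of replicate 1 and -0.85 (adjusted p = 0.0407, from an arm of 1 pool) without that of replicate 2. In M8/M3 the ratio was 0.29 and -0.55 and in M8/M4 0.62 and -0.22 without the M8 pool of replicate 1 and 2, none of them called. Bhlhe41 was not well above background. One of its probes was well above background in 3 of 28 channels and the other in 0 of 28, most of its ratios were recorded as exactly 0, and no ratio was fitted.

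Nfil3 and Hlf are bZIP factors that act on D-boxes in opposite ways, NFIL3 (E4BP4) as a repressor and HLF as an activator. Nfil3 was lower at 8 wk in female liver. In F8/F3 the arrays gave -0.73 and -0.61 (fitted -0.67, standard error 0.15, adjusted p = 0.0192) and in F8/F4 -1.01 and -0.45 (fitted -0.73, adjusted p = 0.0136), or 1.59- and 1.66-fold lower. All 4 arrays were on the same side of 0. In male liver the ratios were -0.08 in M8/M3 (arrays 0.08 and -0.25; -0.31 and 0.14 without the M8 pool of replicate 1 and 2) and -0.35 in M8/M4 (arrays -0.26 and -0.44, adjusted p = 0.158). In M8/F8 the ratio was 0.41 (arrays 0.63 and 0.19, adjusted p = 0.103), with 0.25 and 0.57 without the M8 pool of replicate 1 and 2. The F8/F3 call was lost without its replicate 1 (-0.63, adjusted p = 0.135) or 2 (-0.71, adjusted p = 0.0991), and with fewer arrays in the fit also without the M8 pools (adjusted p = 0.0561 and 0.0579). The F8/F4 call was lost without its replicate 1 (-0.43, adjusted p = 0.181).

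Hlf had small ratios with a small spread. It passed the adjusted p in F8/F3 (0.26, arrays 0.27 and 0.26, adjusted p = 0.0128), F8/F4 (0.28, arrays 0.30 and 0.25, adjusted p = 0.0105) and M8/F8 (-0.20, arrays -0.20 and -0.19, adjusted p = 0.0399). Each of these 3 ratios was below the fold threshold, so Hlf was not called. In male liver the age ratios were -0.03 (M8/M3) and 0.12 (M8/M4). Without the M8 pool of replicate 1 or 2 the M8/F8 ratio was -0.23 (adjusted p = 0.169) or -0.17 (adjusted p = 0.290). F8 held the highest Hlf level, and the largest difference between the means of 2 groups was 0.34 on the log2 scale.

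In M8/M3 none of the 8 genes was called in the fit used here, while 8.66% of bright probes were called higher and 9.34% lower at 8 wk. At an unadjusted p below 0.05 there were 2, Npas2 and Cry2. The error-weighted mean of both arrays called 2, Npas2 and Ciart, a fit of 6 group means called Npas2, and the fits without an M8 pool called Ciart or Per1. In M8/M4 1 gene was called higher (5.06% of probes) and 1 lower (5.98%). In F8/F3 2 were called higher (5.82%) and 2 lower (6.02%), and in F8/F4 1 higher (2.86%) and 2 lower (3.29%). The female comparisons thus held 7 of the 9 age calls.

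That difference between the sexes was tested directly as an interaction of sex and age, and it was called for none of the 8 genes, from 3 to 8 wk (4.18% of probes called) or from 4 to 8 wk (1.84%). At an unadjusted p below 0.05 there were 3 genes in the former, Clock, Nfil3 and Hlf, and 0 in the latter. The lowest adjusted p was that of Hlf from 3 to 8 wk, with a difference of -0.30 (standard error 0.08, adjusted p = 0.0683). For Nfil3 the difference of M8/M3 minus F8/F3 was 0.58 (standard error 0.22, adjusted p = 0.166), for Clock 0.47 (standard error 0.20, adjusted p = 0.208) and for Ciart -1.35 (standard error 1.17, adjusted p = 0.556). The error of Ciart is nearly as large as its difference. The error-weighted mean called Ciart from 3 to 8 wk and none of the 8 from 4 to 8 wk, and Ciart was also called from 3 to 8 wk without the M8 pool of replicate 2 (-2.82, adjusted p = 0.0411, from an arm of 1 pool). A fit of 6 group means called Nfil3 there (0.59, adjusted p = 0.00878). A ratio of 4 wk over 3 wk, read through the shared 8 wk pools, was called for none of the 8 genes in male liver (0.287% of probes) or female liver (0.123%). Its error took the arrays as independent, although the 8 wk pool of a replicate number is in both ratios and drops out of their difference. For Ciart, whose M8 pools differed most, the ratio was -1.24 with a standard error of 1.17 in male liver. The lack of calls therefore does not show that the levels at 3 and 4 wk were alike. Per1 had the lowest adjusted p in these contrasts, 0.366 for a log2 ratio of -0.81 in male liver and 0.446 for -0.88 in female liver, and it alone had an unadjusted p below 0.05, in female liver. The error-weighted mean called Per1 in female liver and none in male liver.

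**Figure D3:**
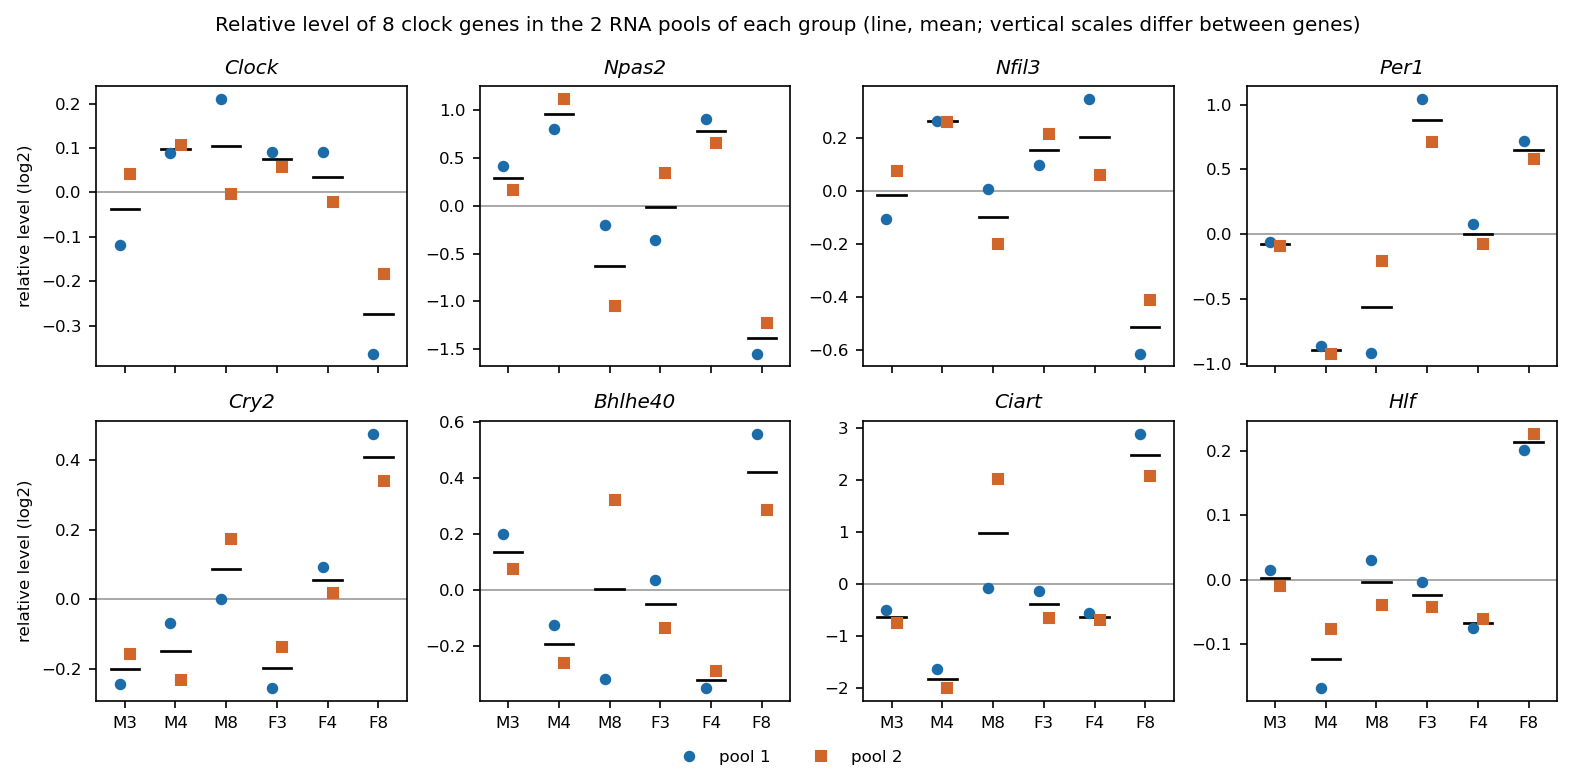
Log2 level of 8 clock genes in the first (circles) and second (squares) RNA pool of each group, relative to the mean of the 6 pools of the same replicate number, with the group mean as a line. F8 is at one end of the order for Clock, Npas2, Nfil3, Cry2, Bhlhe40, Ciart and Hlf, and the M8 pools are furthest apart for Ciart.

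The order of the 6 group levels was read from the pool estimates, as a description. Through the centring the SDs below also hold the difference between the M8 pools, so they are not the spread of a group alone. F8 was the highest group for Ciart, Cry2, Bhlhe40 and Hlf and the lowest for Npas2, Nfil3 and Clock, and in 6 of these 7 genes both F8 pools lay beyond all 10 other pools. The exception was Bhlhe40, whose second M8 pool (0.32) lay above the second F8 pool (0.29). For Ciart the second F8 pool (2.07) was estimated barely above the second M8 pool (2.02). The array that compared these pools directly gave a ratio of 0.09, slightly higher in M8, so they were not clearly separated. For Ciart the mean levels were 2.48 ± 0.58 in F8 (SD, n = 2), 0.97 ± 1.49 in M8, -0.39 ± 0.38 in F3, -0.62 ± 0.09 in F4, -0.63 ± 0.18 in M3 and -1.81 ± 0.26 in M4. F3, F4 and M3 overlapped, and the pools of M4 were below all others. For Npas2 M4 (0.96 ± 0.23) and F4 (0.78 ± 0.17) were highest and overlapped, followed by M3 (0.29 ± 0.18), F3 (-0.01 ± 0.50), M8 (-0.62 ± 0.60) and F8 (-1.39 ± 0.23). Among the latter, M3 overlapped F3 and F3 overlapped M8. Per1 was ordered by sex as well as by age, with F3 (0.88 ± 0.24) and F8 (0.65 ± 0.10) above F4 (0.00 ± 0.11), M3 (-0.08 ± 0.02), M8 (-0.56 ± 0.51) and M4 (-0.89 ± 0.04). Both pools of F3 and of F8 lay above all other pools. For Nfil3 the levels of M4 (0.26), F4 (0.20) and F3 (0.16) overlapped each in turn, M3 (-0.01) and M8 (-0.10) overlapped with each other, and F8 was at -0.51 ± 0.14. For Cry2 F8 (0.41 ± 0.10) lay above M8 (0.09) and F4 (0.06), which overlapped, and M4, F3 and M3 (-0.15, -0.20 and -0.20) overlapped below them.

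Likeness between the genes was read as a description, from the levels in the 12 pools, since a correlation over the 14 ratios, which share these pools, changes with the direction given to the sex ratios. Over the pool levels Ciart correlated with Cry2 at Pearson's r = 0.84, with Bhlhe40 at 0.80 and with Hlf at 0.80, and with Npas2 at -0.95 and Nfil3 at -0.90. Clock and Nfil3 correlated at 0.85. Per1 stood between these genes, with 0.51 for Ciart and -0.51 for Npas2. Over the 14 ratios Per1 and Ciart correlated at 0.91 with the sex ratios as male over female but at -0.03 with them as female over male, so no likeness of Per1 to either side was read from the ratios. Among the 15872 named probes well above background in every channel, those whose 14 ratios were most like those of Ciart were Dbp, Upp2 and Tef, which are themselves clock-driven genes of liver, and their pool levels correlated with Ciart at 0.92, 0.97 and 0.94. Those most like Npas2 were Nek4 (0.96 over the pool levels) and 1110065P20Rik (0.95), those most like Nfil3 were Trub2 (0.79), Fcrl5 (0.89) and Fam222a (0.87), and those most like Cry2 were Cyp2j13 (0.84), Chmp2a (0.97) and Syt11 (0.93). For Per1 they were Tmco4, Stard4 and Mat2a, whose correlations over the ratios, 0.93, 0.92 and 0.90, became 0.07, 0.61 and -0.05 with the sex ratios turned and were 0.61, 0.84 and 0.53 over the pool levels.

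The rest of the clock gave the setting for these ratios. Of 20 other core clock genes, 14 were called in at least 1 comparison (23.8% of all probes). In M8/M3 6 were called up and 5 down, in M8/M4 6 up and 2 down, in F8/F3 5 up and 3 down, and in F8/F4 6 up and 3 down, where 8.66% and 9.34%, 5.06% and 5.98%, 5.82% and 6.02%, and 2.86% and 3.29% of bright probes were called up and down. Their median log2 ratio was 0.15, 0.18, 0.27 and 0.29 in these comparisons, beside 0.02 over all bright probes in each, and that of the 8 genes was -0.06, 0.16, 0.02 and 0.32. Dbp, the PAR bZIP activator, rose by 2.75 to 2.98, and the REV-ERB genes Nr1d1 and Nr1d2 rose by 2.38 to 3.04 and by 2.05 to 3.28 on the log2 scale in all 4 age comparisons. Tef rose with them (1.26 to 1.45), and Per3 was called up in M8/M4 (1.71), F8/F3 (1.98) and F8/F4 (1.47). Arntl, the partner of CLOCK and NPAS2, was down regulated in F8/F3 (-1.11) and F8/F4 (-1.27), the comparisons in which Npas2 and Nfil3 also fell, and its male ratios of -0.74 and -0.82 were not called. Cry1 fell in all 4 age comparisons (-1.91 to -1.11), whereas Cry2 had only ratios above 0 there. Timeless, which also acts in DNA replication, fell by between -1.62 and -0.61. Per2 (-1.0) was called down and Btrc (0.67) up in M8/M3, and Rorb was called up in M8/M4 (2.56), the only comparison in which its probe was well above background in both groups. In each other comparison neither group was well above background on either array, with a ratio of 0 recorded on both arrays of M4/F4.

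By sex, 1 of the other genes was called, Noct (nocturnin), with -1.0 in M3/F3 and -1.92 in M8/F8, higher in female liver as Per1 was. Noct was also called down in M8/M3 (-1.01) and up in F8/F4 (0.92). Between the M8 pools 14 of the 19 other clock genes fitted were higher in the second pool, with differences from -0.66 for Arntl to 1.59 for Usp2, which is named after its value was seen. The difference for Dbp was 0.96.

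**Figure D4:**
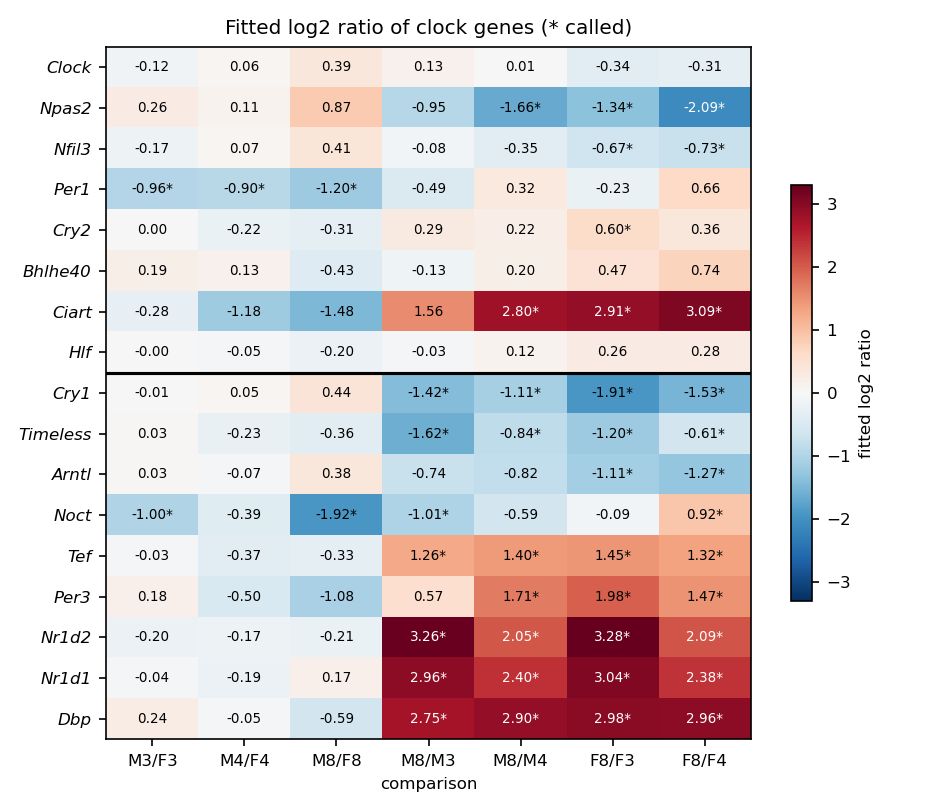
Fitted log2 ratio of the 8 clock genes (above the line) and of the 9 other core clock genes called in at least 2 comparisons (below, ordered by their mean age ratio) in the 7 comparisons; red is higher in male liver or at 8 wk and stars mark called ratios. Npas2 (-2.09) and Ciart (3.09) in F8/F4 stand beside ratios of 2.96 for Dbp and -1.53 for Cry1.

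Of 12 rhythmic output genes of liver, 3 were called up and 2 down in M8/M3, 4 up and 1 down in M8/M4, 3 up and 1 down in F8/F3, and 3 up and 0 down in F8/F4, beside the shares of bright probes given above for each comparison. The largest age ratios were those of Elovl3, an elongase of fatty acids (3.42 in M8/M3 and 3.06 in M8/M4), of Upp2, a uridine phosphorylase (1.38 to 2.06 in all 4), and of Alas1, the first enzyme of heme synthesis (-2.0 in M8/M3, -0.82 in M8/M4 and -0.93 in F8/F3). Of 7 glucocorticoid-responsive genes, which were read because Per1 is one, 2 were called lower in male liver at 3 wk, 1 at 4 wk and 1 at 8 wk, while 0.659%, 1.77% and 6.98% of bright probes were called in either direction. Fkbp5 was called in M8/F8 (-1.07), M8/M3 (-1.05) and M8/M4 (-0.82). Zbtb16 was called in M4/F4 (-1.11) and F8/F4 (-1.21), and Errfi1 in M3/F3 (-1.0), M8/M3 (0.82) and F8/F4 (0.82). In the sex comparisons from the youngest to the oldest age the 7 had median log2 ratios of -0.46, -0.25 and -0.30, beside 0.00, 0.00 and 0.01 over all bright probes. None of the 3 named genes was called in each sex comparison, as Per1 was. A part of glucocorticoids in the sex ratio of Per1 was not tested.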

How the data were processed

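Per the file headers, the authors processed the scans with Agilent Feature Extraction 10.7.1.1 (protocol GE2_107_Sep09), which subtracted the background with spatial detrending and normalized the dyes by linear and LOWESS fits. The deposited files give each spot's ratio as log10 of red over green with a modelled error (a score in log10 units that was used in 1 alternative), its processed, median and background-subtracted intensity, and flags. The authors' series table of log10 ratios was identical to the scanner ratios (largest difference 0).

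Ratios were converted to log2 and turned by the dyes in the labels, and spots of a probe were averaged (39429 probes, 26055 named through RefSeq accessions). Non-uniform spots (0 to 10 per array) were left out. In limma 3.58.1 (R 4.3.3) the 14 arrays were fitted with 7 comparisons and 1 dye term, leaving 6 residual degrees of freedom, on 27390 probes bright in at least 1 comparison. Benjamini-Hochberg adjustment ran over the 191730 tests of probes and comparisons together, or within each interaction or 4 wk over 3 wk contrast. The probe of a gene was the one with the highest mean signal. The fit was also run on simulated data, with known changes in M8 alone and 1 ratio of pool to array variance for all probes. The outcome is not given here, and no support for the calls is drawn from it.

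Arrays of one number share pools, and pools made up 89.4% of the variance between replicates over 20451 probes. The 2 arrays per comparison limit the precision. M8/M3 and the sex comparisons were scanned on day 1 and the others on day 2, each replicate on a slide of its own. The study's Rosetta software was not used here, so limma took its place with the study's fold threshold.

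The 9 genes and all gene lists were chosen with earlier results of these data known. All 9 genes were named, the other core clock genes where called, from the output and glucocorticoid lists the 3 with the largest called age ratio, and the 3 genes most like each called gene; some genes that this rule names are not reported here. Alternatives covered the model, normalization, filters, thresholds, probe choice and each array left out.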

Additional observations from a re-analysis of the deposited data

Results flagged for a closer look

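None of the 8 fitted clock genes had a called interaction of sex and age. Among the genes named from the output and glucocorticoid lists 3 did, tested as the difference between the age ratios of male and female liver (limma, adjusted over all probes). For Alas1 the difference was -1.07 from 3 to 8 wk (standard error 0.24, adjusted p = 0.0412) and -1.26 from 4 to 8 wk (standard error 0.24, adjusted p = 0.0423), with age ratios of -2.0 in M8/M3, -0.93 in F8/F3, -0.82 in M8/M4 and 0.44 in F8/F4. For Elovl3 it was 3.49 from 3 to 8 wk (standard error 0.77, adjusted p = 0.0390), with age ratios of 3.42 in M8/M3 and -0.08 in F8/F3. For Fkbp5 it was -1.14 from 3 to 8 wk (standard error 0.19, adjusted p = 0.0132), with age ratios of -1.05 in M8/M3 and 0.08 in F8/F3.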

How the results depend on the processing

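No called ratio of a clock gene changed sign with another background correction or normalization, 6 group means, the error-weighted mean, a male 8 wk pool left out or an array left out, which are the settings that change the ratios themselves. Nfil3 in F8/F4, Cry2 in F8/F3, Npas2 in F8/F4 and Per1 in M8/F8 stayed called in all 17 settings other than single arrays left out, of which the series table and the mean over probes gave the same ratios by construction. Counts of clock genes called in a comparison that moved by more than 1.5 times were as follows, and the cause was not tested except where fewer arrays or other thresholds make it plain. Background-subtracted signals without loess gave 2 in F8/F3, 1 in M8/M4, 0 in M4/F4 and 0 in M3/F3, and no filter on dim probes gave 2, 1, 0 and 0. Adjustment within each comparison gave 0 in M3/F3 and 0 in M4/F4, where Per1 was lost (adjusted p = 0.264 and 0.143). A dye term for each scan day gave 2 in F8/F3 and 1 in M8/M4, and normexp with loess 1 in M8/M4. No fold threshold gave 2 in M8/F8 and 5 in F8/F4. With 6 group means there were 1 in M8/M3, 5 in F8/F4 and 1 interaction from 3 to 8 wk. The error-weighted mean gave 2 in M8/F8, 2 in M8/M3, 5 in F8/F4, 1 interaction from 3 to 8 wk and 1 in F4/F3. Without the M8 pool of replicate 1 there were 5 in F8/F4, 2 in F8/F3, 2 in M4/F4, 1 in M8/M4 and 1 in M8/M3, and without that of replicate 2 there were 5, 2, 2, 1 and 1, with 3 in M8/F8 and 1 interaction from 3 to 8 wk, both with M8 as 1 pool assumed to vary like the other groups. With each array left out in turn, between 0 and 1 were called in each sex comparison, 0 to 2 in M8/M4, 0 to 4 in F8/F3, 0 to 4 in F8/F4, and 0 in M8/M3, both interactions and both 4 wk over 3 wk contrasts. Smaller moves were the loss of Npas2 in F8/F3 without a dye term and with normexp and loess (3 called), the loss of Ciart in F8/F4 with a dye term for each scan day and with no filter on dim probes (2 called), and the gain of Bhlhe40 in F8/F4 with shared pools in the covariance (4 called) and of Hlf in F8/F3 with no fold threshold (5 called). Over these 14 arrays left out the ratio of Ciart in M8/M4 ranged from 1.49 to 4.11 and was called in 5, and that of Npas2 in F8/F3 ranged from -1.57 to -1.11 and was called in 6.

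With the replicate block 4 genes were called in F8/F4, Per1 being the one gained, and 4 in F8/F3, and none of the called pairs was lost. Deviations of arrays of the same number correlated between comparisons at r = -0.49 to 0.61, and at 0.25 to 0.40 between age or between sex comparisons that share no pool. The condition that every correlation exceed 0.1 was not met. Dim signals limit Npas2, Ciart and Bhlhe41. Over all probes, the count called in M3/F3 was 149, or 18 with adjustment within each comparison, 790 without the fold threshold, 93 with normexp and 235 with the error-weighted mean. It rose when either array of M3/F3 was left out, and that of F8/F4 fell when either of its arrays was. In these fits 1 array was left in the comparison. With normexp the count fell from 4561 to 2113 in M8/M3, 2928 to 1826 in M8/M4, 3085 to 1990 in F8/F3, 1628 to 1071 in F8/F4 and 1627 to 1030 in M8/F8. No fold threshold gave 5384 in F8/F4, 8604 in F8/F3, 7618 in M8/M4, 10490 in M8/M3, 5061 in M8/F8 and 1677 in M4/F4. With adjustment within each comparison it was 209 in place of 391 in M4/F4. With shared pools in the covariance the count fell in each comparison, such as from 4561 to 4059 in M8/M3, 2928 to 2470 in M8/M4 and 1627 to 1441 in M8/F8. Leaving out the M8 pool of replicate 1, it was 2983 in M8/M3 and 88 in M3/F3, and without that of replicate 2 it was 1617 in M8/M4, 905 in M8/F8 and 85 in M3/F3.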
